A study of Mus musculus with 2 samples.

Results

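The barcodes described here were chosen by 2 measured values: at least 500 detected genes, and more than 10% of all unique molecular identifiers (UMIs, the tags that count single mRNA molecules) from the 13 genes of the mitochondrial genome. They numbered 1444 of the 14754 barcodes with at least 500 genes, 731 of 7569 labelled oil and 713 of 7185 labelled tamoxifen. The cells were mouse leukemia cells carrying AML1-ETO9a (AE9a), a truncated fusion of the transcription factors RUNX1 and ETO that was delivered together with GFP. Per the labels, both libraries came from Usp18 f/f UBCER-Cre AE9a leukemia, grown in sublethally irradiated C57BL/6 recipients, although the treatment protocol also names a Usp18 +/f genotype. UBCER-Cre is a Cre recombinase that tamoxifen activates in all tissues and that both groups carried. The recipients were given oil or tamoxifen, and GFP+ Lin- c-Kit+ spleen cells outside the dead-cell dye gate were sorted on day 3, counted from the first injection. Each group was a pool of 3 mice in 1 library of 8000 targeted cells, so no difference between the libraries has a replicate check, and no p-value is given. Intervals are 95% intervals that cover counting error only.

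Mitochondria carry their own small genome, whose protein genes encode parts of respiratory complexes I, III, IV and V. All other mitochondrial proteins, among them the remaining respiratory subunits, the mitochondrial ribosome and the import machinery, are encoded in the nucleus. A high mitochondrial share of the UMIs is widely used to set cells aside, because a cell whose outer membrane is broken can lose cytosolic mRNA while mRNA enclosed in mitochondria stays. The same share can also be high in intact cells that are rich in mitochondria or poor in cytosolic mRNA, and the share alone cannot tell these apart.

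The libraries held 7774 (labelled oil) and 7311 (labelled tamoxifen) barcodes with 70239576 and 65028672 UMIs and medians of 7904.5 and 7650 UMIs per barcode. They shared 14 barcode sequences, and none of the high-mitochondrial barcodes was shared with a high-mitochondrial barcode of the other library. Usp18, the gene targeted for deletion, was counted at 10.49 CPM (nuclear UMIs scaled to 1000000, from 37 UMIs) in the high-mitochondrial barcodes of the library labelled oil and at 16.6 CPM (62 UMIs) in those of the library labelled tamoxifen. It was thus not lower in the library labelled tamoxifen, and whether its counted 3′ end lies in the deleted part was not tested. The leukemia and progenitor markers (Kit, the stem cell factor receptor that was also the sort marker, Runx1, Myb and others) summed to 2301 and 2103 CPM in the high-mitochondrial barcodes. In the comparison barcodes (2% to 10% mitochondrial UMIs) they summed to 1818 and 1832 CPM. Of these markers Cd34 had 0 and 1 UMIs, and Lmo2 was lower, at 119 against 140 CPM and at 105 against 123 CPM. Mast and basophil markers summed to 3919 and 2925 CPM, against 2487 and 2391 CPM in the comparison barcodes. Erythroid markers summed to 7951 and 7378 CPM, against 8292 and 9770 CPM. No single marker of neutrophils, granulocyte precursors, macrophages, dendritic, T, B, NK, megakaryocytic or endothelial cells reached 20 CPM over the pooled barcodes. Macrophage markers summed to 14.5 and 14.2 CPM (51 and 53 UMIs), against 8.86 and 9.23 CPM in the comparison barcodes, and megakaryocytic markers to 14.2 and 17.4 against 7.62 and 10.5 CPM. Their part in the results was not tested. All 7 neutrophil markers and all 4 NK markers were at 0 in the high-mitochondrial barcodes of both libraries.

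High-mitochondrial barcodes made up 9.66% (9.00% to 10.3%, exact binomial interval) of the library labelled oil and 9.92% (9.24% to 10.6%) of the library labelled tamoxifen. The difference of 0.266 percentage points had an interval from -0.694 to 1.23. Above 20% mitochondrial UMIs the order was the other way round, with 99 barcodes or 1.31% (1.06% to 1.59%) in the library labelled oil against 66 or 0.919% (0.711% to 1.17%) in the library labelled tamoxifen, a difference of -0.389 points (-0.727 to -0.0515). The distribution had no gap at the threshold. Just inside it, between 10% and 10.5%, stood 166 and 163 barcodes with medians of 5207.5 and 6297 nuclear UMIs. Just outside it, between 9.5% and 10%, stood 233 and 249 barcodes with medians of 6225 and 6172.

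The comparison group throughout is the 13056 barcodes with at least 500 genes and 2% to 10% mitochondrial UMIs, 6673 labelled oil and 6383 labelled tamoxifen. Median nuclear UMIs were 4468 in the high-mitochondrial against 8168 in the comparison barcodes of the library labelled oil, a ratio of 0.547, and 4928 against 7671 in the library labelled tamoxifen, a ratio of 0.642. Median mitochondrial UMIs were 642 against 635 and 679 against 598, ratios of 1.01 and 1.14. From 7% to 8% upward, the median of nuclear UMIs in the library labelled oil went from 8543 to 5355 at 10% to 11%, 3314 at 15% to 20% and 944 above 30%. Over the same steps the median of mitochondrial UMIs was 679, 627.5, 623 and 804. The library labelled tamoxifen followed with nuclear medians of 8382, 5966, 2922 and 1163.5, and mitochondrial medians of 676, 701, 599.5 and 802.5. Since the share selected the barcodes, these values describe the selection. Comparison barcodes of 2% to 4% were also small, with nuclear medians of 3980.5 and 4136.5, and held 131 and 139.5 mitochondrial UMIs. Genes expected at a fixed depth of 1000 nuclear UMIs were alike between the groups, with medians of 663 against 652 (labelled oil) and 628 against 625 (labelled tamoxifen). Above 20% they were higher, at 747 and 730 genes, where 33 of 99 and 18 of 66 barcodes were too shallow and were left out.

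**Figure D1:**
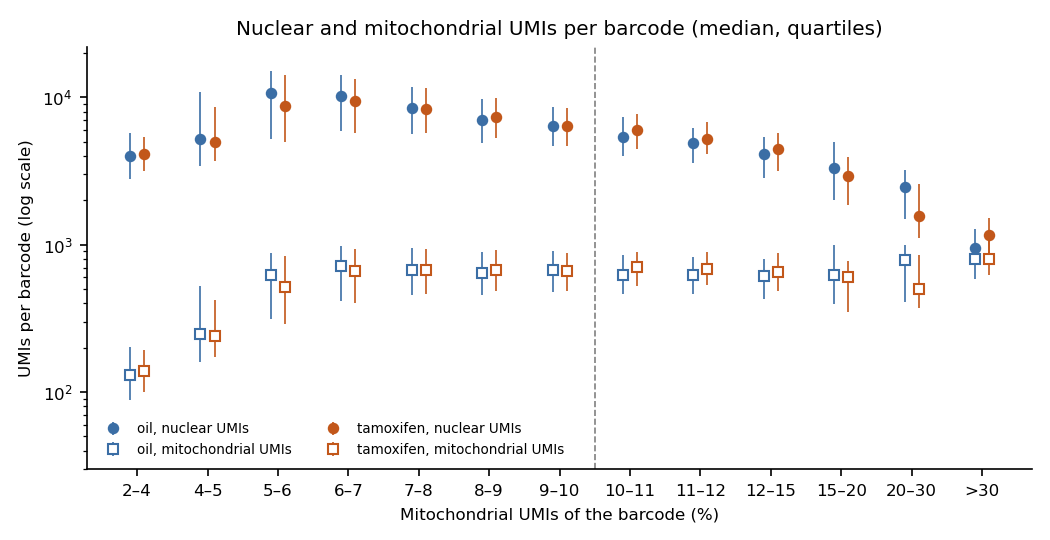
Median UMIs per barcode (log scale, bars from the lower to the upper quartile) from nuclear genes (filled circles) and from mitochondrial genes (open squares), by the mitochondrial percentage of the barcode, for the libraries labelled oil (blue) and tamoxifen (orange). Right of the dashed line, at 10%, nuclear medians decline from 5355 and 5966 to 944 and 1163.5, while mitochondrial medians lie between 499 and 804.

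Nuclear genes were compared as shares of the nuclear total, so that the mitochondrial UMIs that selected the barcodes did not enter. Of the 6040 nuclear genes at 20 CPM or more, 331 (5.48%) were at least 1.5-fold higher and 223 (3.69%) at least 1.5-fold lower in the high-mitochondrial barcodes of the library labelled oil, and 78 (1.29%) higher and 244 (4.04%) lower in those of the library labelled tamoxifen. The higher lists shared 59 genes (17.8% of the first and 75.6% of the second list), and the lower lists 141 (63.2% and 57.8%). This split moved with the scaling: with TMM factors (a trimmed mean of the gene ratios) 100 genes were higher and 540 lower in the library labelled oil, and 33 and 406 in the library labelled tamoxifen, and with median-of-ratios factors 126 and 459, and 51 and 314. Because the high-mitochondrial barcodes held fewer nuclear UMIs, and smaller barcodes of any mitochondrial share differ in content from larger ones, a second comparison weighted the comparison barcodes to the same distribution of nuclear UMIs, in steps of 0.25 on the log2 scale. Depth-weighted, 74 genes (1.23%) were higher and 17 (0.281%) lower in the library labelled oil, and 38 (0.629%) higher and 29 (0.48%) lower in the library labelled tamoxifen. In both libraries the interval lay above 0 for 317 genes and below 0 for 294, against 1232 and 1061 without weights.

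The 10 genes lowest before weighting, by the mean over both libraries and with intervals below 0 in both, were Tac2 (a tachykinin precursor), Hirip3, Hist2h2ac (a histone H2A gene), Ung (uracil-DNA glycosylase), Tk1 (thymidine kinase), Rcc1 (the exchange factor of the GTPase Ran), Rrm2 (a ribonucleotide reductase subunit), Cdc45 (a part of the replicative helicase), Mthfd2 (a mitochondrial folate enzyme) and C2cd4a. Rrm2 stood at 46.8 against 94.3 CPM in the library labelled oil and at 32.7 against 66.7 CPM in the library labelled tamoxifen, log2 ratios of -1.01 and -1.03. Against the depth-weighted comparison barcodes it was higher, at 0.35 (0.11 to 0.58) and 0.32 (0.05 to 0.60). Tac2 alone among the 10 kept an interval below 0 in both libraries, at -1.45 (-1.85 to -1.05) and -1.03 (-1.36 to -0.70) after weighting. On the higher side the 10 genes were Tppp3, Lars2 (mitochondrial leucyl-tRNA synthetase), Anxa2 (annexin A2), Neurl3, Tespa1, Trnp1, Gm20186, Tcp11l2, Slc39a1 (a zinc transporter) and Notch2. Anxa2 was at 208 against 97.1 CPM and at 93.7 against 50.8 CPM, log2 ratios of 1.10 and 0.88, and at 0.01 (-0.10 to 0.13) and 0.04 (-0.13 to 0.20) after weighting. Lars2, Slc39a1 and Notch2 remained higher with intervals above 0 in both libraries. Neurl3 (-0.10 and -0.18) and Tcp11l2 (-0.27 and -0.14) were below 0 after weighting, as were Tppp3 (-0.25) and Gm20186 (-0.09) labelled tamoxifen and Trnp1 (-0.09) labelled oil. In barcodes of over 15%, without weights, Tppp3 was at -1.47 labelled oil, and labelled tamoxifen Slc39a1 was at -0.10, Tcp11l2 at -0.04 and Anxa2 at -0.0034.

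Nuclear genes of the mitochondrion were mostly lower in the high-mitochondrial barcodes before weighting. Of the 37 nuclear-encoded complex I genes considered, 33 (labelled oil) and 32 (labelled tamoxifen) were lower, beside 42.2% and 47.1% of all genes considered. Their medians were -0.20 and -0.13, beside 0.07 and 0.02 over all genes. Of them 1 and 0 were at least 1.5-fold lower, beside 3.69% and 4.04% of all genes. The lowest was Ndufab1, the mitochondrial acyl carrier protein, at -0.59 and -0.48. Complex II and III genes had medians of -0.22 and -0.20 (Cyc1, cytochrome c1, -0.60 and -0.70), complex IV genes -0.18 and -0.13 and complex V genes, of the ATP synthase, -0.20 and -0.17. Import and chaperone genes were lower in 25 of 26 in each library, with medians of -0.29 and -0.28. Among them Hspd1, the matrix chaperonin, stood at 184 against 314 CPM in the library labelled oil, a log2 ratio of -0.77. Mitochondrial ribosomal protein genes had medians of -0.30 and -0.21 over 74 genes. After weighting, each of these medians lay between 0.01 and 0.12, and 27 and 36 of the 37 complex I genes were on the higher side. Of all 6040 genes considered, 3130 and 2755 were on the higher side. None of the genes of these lists passed 1.5-fold in either direction. Of all genes, 1.23% and 0.629% were at least 1.5-fold higher and 0.281% and 0.48% lower. Genes of the TCA cycle went from medians of -0.16 and -0.15 to 0.06 and 0.04. Mitophagy genes (Pink1, Ulk1, Map1lc3b and others, 11 considered) were above 0 in 10 of 11 before weighting, with medians of 0.26 and 0.18, and at -0.09 and -0.07 after it.

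**Figure D2:**
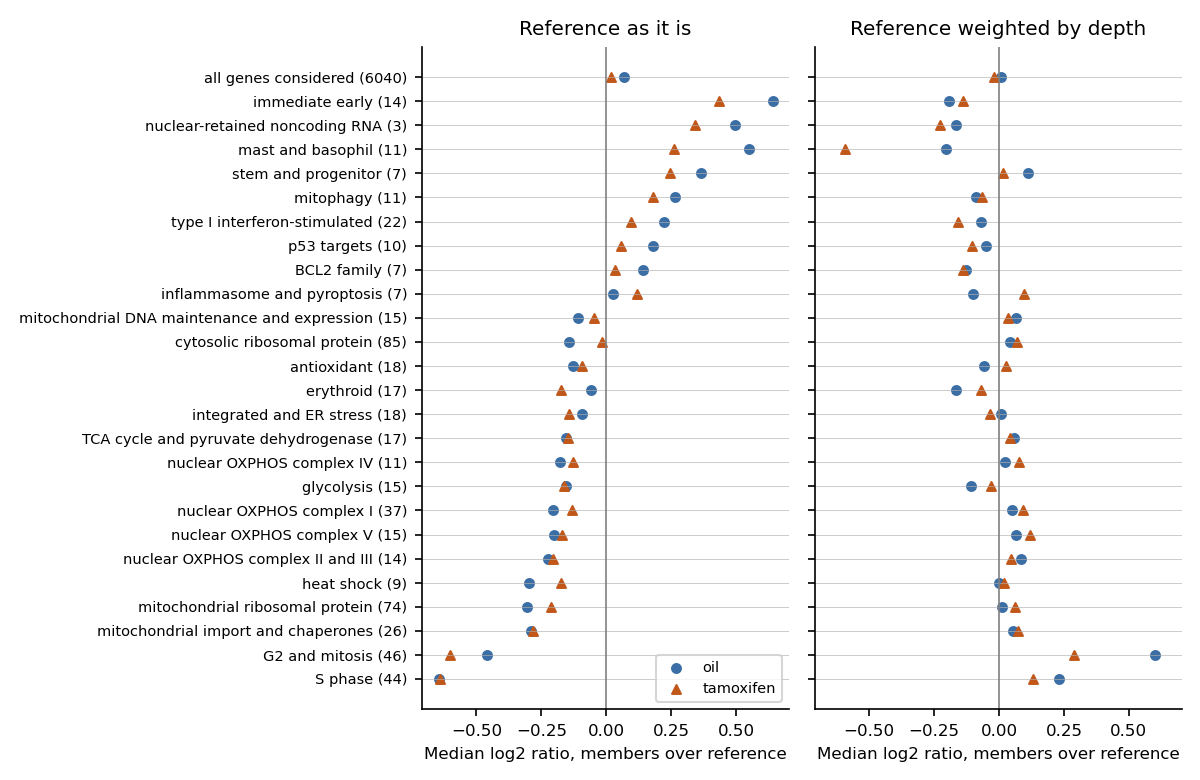
Median log2 ratio of each gene list (number of genes considered in parentheses) in the high-mitochondrial over the comparison barcodes, as they are (left) and weighted to the same nuclear UMIs (right), for the libraries labelled oil (blue circles) and tamoxifen (orange triangles). The cell cycle lists lie lowest on the left, between -0.65 and -0.46, and highest on the right, between 0.13 and 0.60. The mitochondrial lists other than mitophagy move from below 0 to between 0.01 and 0.12. The mitophagy list moves the other way, from 0.26 and 0.18 to -0.09 and -0.07.

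Cell cycle genes were lower before and higher after weighting. Without weights, 42 and 43 of the 44 S phase genes and 42 and 46 of the 46 genes of G2 and mitosis were lower in the high-mitochondrial barcodes, with medians of -0.65 and -0.64 for S phase and -0.46 and -0.60 for G2 and mitosis. At matched depth 40 and 33 S phase genes and 45 and 40 genes of G2 and mitosis were higher, with medians of 0.23 and 0.13, and of 0.60 and 0.29, and 24 and 11 of the G2 and mitosis genes passed 1.5-fold beside the 1.23% and 0.629% of all genes. Top2a, the topoisomerase that untangles replicated chromosomes, was the highest gene of all by the weighted mean of both libraries. It stood at 233 CPM against 320 CPM in the unweighted and 101 CPM in the weighted comparison barcodes of the library labelled oil, and at 178 CPM against 242 and 82.6 CPM in the library labelled tamoxifen. Its weighted log2 ratios were 1.20 (1.09 to 1.31) and 1.10 (0.98 to 1.23). Anln, Nuf2, Cit, Ccnf, Aspm, Spag5, Prc1, Cenpf and Rad54l followed, of which all but Rad54l (a recombination repair helicase) act in mitosis or cytokinesis or, as Ccnf, are a cyclin.

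Mast cell genes were higher before and lower after weighting. All 11 mast and basophil genes were higher without weights, with medians of 0.55 and 0.26, and 10 of 11 were lower with them, with medians of -0.20 and -0.59. Cma1, a mast cell chymase, was at 1058 CPM against 556 CPM unweighted and 1685 CPM weighted in the library labelled oil, and at 530 against 1071 CPM weighted in the library labelled tamoxifen, weighted log2 ratios of -0.67 (-0.72 to -0.62) and -1.02 (-1.08 to -0.95). Cpa3, mast cell carboxypeptidase, had weighted ratios of -0.16 and -0.70. The globins Hba-a2 and Hbb-bs were at -0.68 and -0.96, and at -0.43 and -1.01 on the weighted scale. Unweighted, Hba-a2 was at 0.19 and -0.44, and Hbb-bs at -0.15 and -0.87. Of the 17 erythroid genes considered, 10 and 11 were lower at matched depth, beside 48.2% and 54.4% of all genes. The erythroid medians were -0.16 and -0.07. Counts of Hba-a1 and Hba-a2, and of Hbb-bs and Hbb-bt, come from near-identical copies, so their split within each pair is uncertain.

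Immediate early genes, which respond within minutes to stimuli including tissue handling, were higher in 14 of 14 without weights (medians 0.64 and 0.43, of which 8 and 3 past 1.5-fold beside 5.48% and 1.29% of all genes) and lower in 12 of 14 with them (medians -0.19 and -0.14). In barcodes of over 15% the unweighted median labelled oil was -0.60. Klf2 went from 1.15 and 0.36 to -0.33 and -0.81. Malat1, an RNA kept in the nucleus, took 10510 CPM against 7453 CPM and 11871 CPM against 9356 CPM, log2 ratios of 0.50 (0.48 to 0.51) and 0.34 (0.33 to 0.36) that became -0.17 and -0.23 at matched depth. Heat shock, p53 target, BCL2 family, inflammasome and interferon-stimulated lists had weighted medians between -0.16 and 0.09, with 1 gene past 1.5-fold in each library, on the lower side and of the interferon-stimulated list. Bax, a pore former of the mitochondrial outer membrane, was at 0.02 and 0.04, and Bbc3 (PUMA) at -0.21 and -0.29. Genes of the integrated and ER stress responses had medians of 0.01 and -0.04.

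Lars2 and Gm42418 were outside all lists, and Gm42418 and AY036118 were chosen after their values were seen. Lars2 (chromosome 9, 123366927 to 123462666, forward strand, GRCm38) was counted at 116 against 53.1 CPM in the library labelled oil and 103 against 54.4 CPM in the library labelled tamoxifen, with weighted log2 ratios of 0.85 (0.69 to 1.01) and 0.60 (0.43 to 0.76). Gm42418 (chromosome 17, 39846958 to 39848788, forward strand), an annotated noncoding RNA that covers the locus AY036118 on the opposite strand, was at 3880 against 2048 CPM and 3465 against 2182 CPM. Its weighted ratios were 0.42 and 0.24, and those of AY036118 were 0.04 and -0.05. Whether counting used the strand is not given in the sources used here, so the split between these overlapping loci is uncertain.

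Within the mitochondrial UMIs, whose total chose the barcodes but whose division among the genes did not, mt-Nd6 differed most. It is the only protein gene read from the reverse strand of the mitochondrial genome (13552 to 14070), the other 12 being on the forward strand, and encodes a complex I subunit. It made up 0.0579% of mitochondrial UMIs in the high-mitochondrial against 0.1003% in the comparison barcodes of the library labelled oil, and 0.0588% against 0.113% in the library labelled tamoxifen. The log2 ratios of its share at matched depth were -0.85 (-1.03 to -0.67) and -0.93 (-1.11 to -0.76). Its share went down in steps from 0.230% and 0.328% at 2% to 4% mitochondrial UMIs, through 0.104% and 0.118% at 6% to 7%, to 0.0448% and 0.0521% at 10% to 11%. Above 20% it stood again at 0.109% and 0.118%, from 87 and 58 UMIs, and its ratio there was -0.02 (-0.52 to 0.47) and 0.15 (-0.82 to 1.13). The steps were not even, with 0.118% from 45 UMIs at 15% to 20% in the library labelled oil. In the high-mitochondrial barcodes these shares rest on 297 and 307 mt-Nd6 UMIs, against 4499 and 4675 in the comparison barcodes. The end of mt-Nd6 overlaps mt-Nd5 on the other strand.

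Several other mitochondrial genes differed less, and in the same direction in both libraries. At matched depth the share of mt-Co1, a core subunit of complex IV, was at -0.26 (-0.28 to -0.25) and -0.24 (-0.26 to -0.23). The shares of mt-Nd2 were at 0.18 and 0.21 and of mt-Cytb at 0.15 and 0.15. Without weights mt-Co1 was at -0.07 and -0.08 and mt-Cytb at 0.03 and 0.02, while mt-Nd2 was below 0, at -0.12 and -0.10. The shares of mt-Nd1, mt-Nd3, mt-Nd4l and mt-Nd4 also went from below to above 0 with weights in both libraries. At matched depth the differences of mt-Co1, mt-Nd2 and mt-Cytb widened with the mitochondrial share of the barcode. Above 20%, mt-Co1 was at -0.69 (-0.73 to -0.65) and -0.80 (-0.86 to -0.74), and mt-Nd2 at 0.59 (0.52 to 0.65) and 0.74 (0.60 to 0.89). Without weights they were there at -0.26 and -0.36, and at -0.07 (-0.12 to -0.03) and 0.07 (0.01 to 0.13). Unweighted, mt-Co1 was at -0.04 and -0.06 at 10% to 12%, and at -0.03 and -0.04 at 12% to 20%. Its share of mitochondrial UMIs also fell within the comparison barcodes, from 18.5% and 22.9% at 2% to 4%. It was 13.5% and 15.6% at 9% to 10%. In barcodes of 12% to 15% it was 13.8% and 15.4%. The shares of mt-Co2, mt-Co3 and mt-Atp6, the most abundant, stayed between -0.04 and 0.13 in every range.

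**Figure D3:**
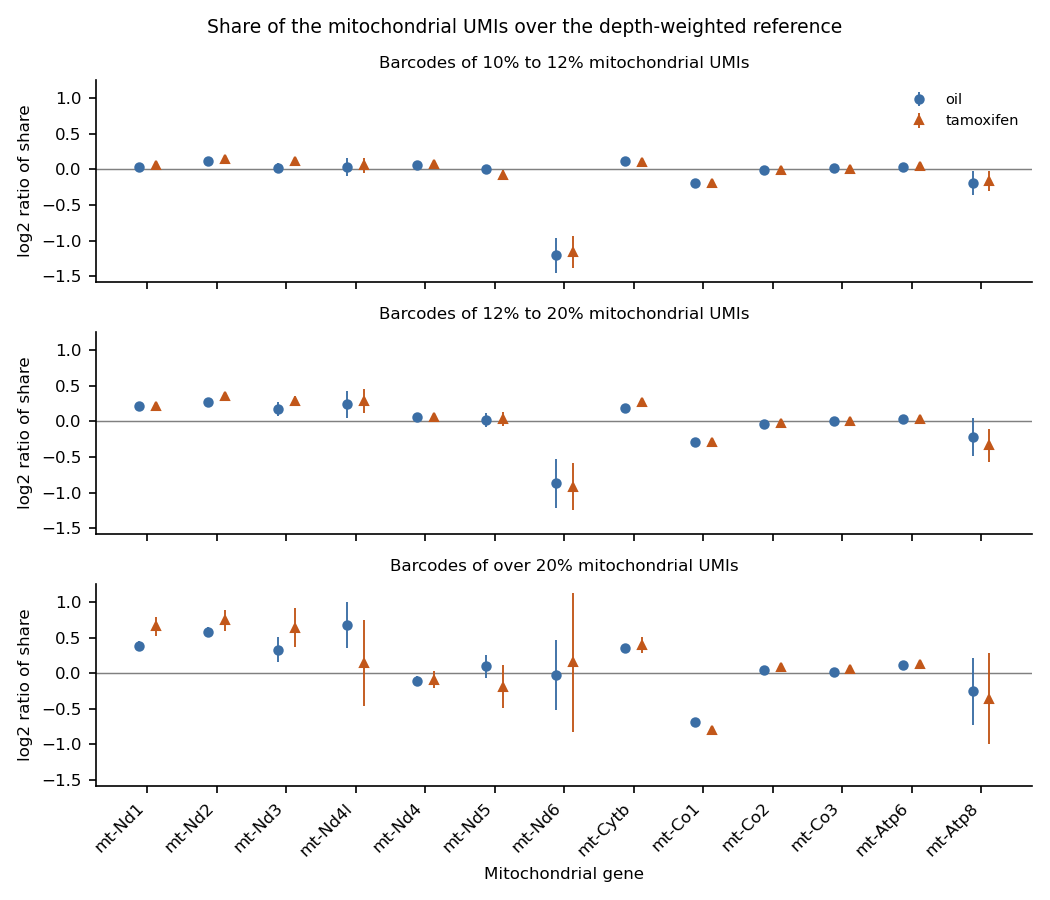
Log2 ratio of each mitochondrial gene's share of the mitochondrial UMIs, high-mitochondrial over depth-weighted comparison barcodes, with 95% counting intervals, in barcodes of 10% to 12% (top), 12% to 20% (middle) and over 20% (bottom), for the libraries labelled oil (blue circles) and tamoxifen (orange triangles). mt-Nd6 lies near -1.2 in the top panel and near 0 with wide intervals in the bottom panel, where mt-Co1 is at -0.69 and -0.80.

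The high-mitochondrial barcodes were not uniform, and genes past 1.5-fold at matched depth were most frequent above 20%. Ranges of 10% to 12% (454 labelled oil and 458 labelled tamoxifen), 12% to 20% (178 and 189) and over 20% (99 and 66) were set after the values were seen and compared over the 730 genes at 200 CPM or more, since the third range held only 197841 and 107048 nuclear UMIs. At 10% to 12%, 3 genes (0.411%) were 1.5-fold higher and 0 (0%) lower than in the depth-weighted comparison barcodes of the library labelled oil, and 2 (0.274%) higher and 5 (0.685%) lower for the library labelled tamoxifen. At 12% to 20% the counts were 7 (0.959%) and 6 (0.822%), and 6 (0.822%) and 11 (1.51%). Over 20% they were 126 (17.3%) and 169 (23.2%), and 128 (17.5%) and 160 (21.9%). In this range 104 genes had intervals above 0 and 147 below 0 in both libraries. The comparison barcodes small enough to match it were few, equivalent to 193 and 92.0 equally weighted barcodes, and with so few UMIs the ratios scatter more than in the other ranges.

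Above 20%, the 10 genes lowest at matched depth, with intervals below 0 in both libraries, were Hbb-bt, Cma1, Hba-a2, Hba-a1, S100a10, Lgals3 (galectin-3), Crip1, Hbb-bs, Sh3bgrl3 and Capg. Lgals3 was at 167 against 1443 CPM weighted in the library labelled oil and 187 against 1190 CPM in the library labelled tamoxifen, log2 ratios of -3.11 (-3.61 to -2.61) and -2.67 (-3.33 to -2.01). Its unweighted ratios were -1.34 (-1.88 to -0.85) and -0.85 (-1.56 to -0.22). It was detected in 18 of 99 (18.2%, 11.1% to 27.2%) and 13 of 66 (19.7%, 10.9% to 31.3%) barcodes, against 71.3% and 60.8% of the depth-weighted comparison barcodes. Cma1 was at -2.87 and -3.19, in 29 and 12 barcodes, from 511 and 271 CPM against 3726 and 2465 CPM weighted. Without weights it was at -0.12 (-0.42 to 0.16) labelled oil and at -0.76 (-1.34 to -0.24) labelled tamoxifen. The unweighted interval of Capg labelled tamoxifen also included 0. Hbb-bs was at -1.08 and -2.90, and 1 barcode held 39.0% of its 336 UMIs in the library labelled oil and 44.8% of its 67 UMIs in the library labelled tamoxifen. It was detected in 32.3% (23.3% to 42.5%) and 24.2% (14.5% to 36.4%) of barcodes against 28.6% and 29.9% of the weighted comparison barcodes, values that lie within those intervals. Actb, the cytoskeletal actin, was at -0.87 and -0.78 and Tmsb4x, which binds actin monomers, at -1.47 and -1.81, both chosen after their values were seen. Free RNA in the droplets also yields UMIs, and no cell class that should lack these genes was defined to measure it.

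The 10 genes highest above 20% at matched depth, with intervals above 0 in both libraries, were Top2a, Mki67, Hsp90b1, Cpd, Hspd1, Hspa9, Smc4, Calr, C1qtnf12 and Eprs. Mki67, a coat protein of mitotic chromosomes, stood at 1339 against 148 CPM and at 757 against 163 CPM, log2 ratios of 3.18 (2.84 to 3.51) and 2.22 (1.60 to 2.83). It was detected in 48 of 99 (48.5%, 38.3% to 58.7%) and 22 of 66 (33.3%, 22.2% to 46.0%) barcodes, against 14.7% and 11.4% of the weighted comparison barcodes, and the barcode with the most held 8.30% and 13.6% of its UMIs. Calr, the calcium-binding chaperone calreticulin, was at 1.52 (1.29 to 1.75) and 1.59 (1.20 to 1.98), and Hsp90b1, an HSP90 family chaperone of the same compartment, the endoplasmic reticulum, at 1.73 and 1.81. Hspa5, another chaperone there and not among the 10, was at 1.05 (0.71 to 1.40) labelled oil. Labelled tamoxifen Hspa5 was at 0.06 (-0.49 to 0.62). The mitochondrial chaperones Hspd1 and Hspa9 were at 0.95 and 2.26, and at 2.02 and 1.15, and were the only nuclear-encoded mitochondrial proteins among the 10. Without weights Hspd1 was at -0.46 (-0.92 to -0.04) labelled oil and at 0.71 (0.22 to 1.15) labelled tamoxifen. The unweighted intervals included 0 for Eprs in both libraries and for Hspa9 and Smc4 labelled tamoxifen. At matched depth Lars2 was at 2.81 (2.44 to 3.18) and 1.01 (0.35 to 1.67), and Gm42418 at 1.90 and 0.76. AY036118, near 0 over all high-mitochondrial barcodes, was here at 1.01 (0.78 to 1.24) and 0.81 (0.47 to 1.15).

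Summed by list, G2 and mitosis genes took 1.17% against 0.449% of nuclear UMIs above 20% in the library labelled oil and 0.709% against 0.352% in the library labelled tamoxifen, log2 ratios of 1.38 (1.30 to 1.46) and 1.01 (0.86 to 1.16). S phase genes were at 0.98 and 0.99 and genes of the integrated and ER stress responses at 0.90 and 0.92, all at matched depth. In barcodes of over 15%, unweighted, the S phase and G2 and mitosis medians were 0.19 and 0.23 labelled oil. Labelled tamoxifen these unweighted medians did not turn to above 0. On the lower side were the erythroid list at -1.40 and -2.07, the immediate early list at -1.68 (-1.86 to -1.50) and -0.94 (-1.16 to -0.71), the mitophagy list at -0.59 and -0.70 and cytosolic ribosomal proteins at -0.46 and -0.28. Within the immediate early list, Klf2 was found in 4 of 99 and 3 of 66 barcodes and Fos in 2 and 2, where 1 barcode held 10 of the 11 Fos UMIs of the library labelled tamoxifen. The mast list was at -0.49 and -0.01, and within it Cpa3 was at -0.31 (-0.55 to -0.07) and 1.24 (0.94 to 1.53). Without weights Cpa3 was higher in both libraries, at 1.07 (0.83 to 1.29) and 1.79 (1.53 to 2.04). The lists of complexes I, II and III, and V and the mitochondrial ribosome lay between -0.14 and 0.18, complex IV at -0.27 and -0.05, and import and chaperones at 0.44 and 0.34. At matched depth Malat1 was at 0.29 (0.24 to 0.34) labelled oil and at -0.12 (-0.19 to -0.06) labelled tamoxifen. Unweighted, it was higher in both libraries, at 1.473 (1.428 to 1.517) labelled oil and 1.501 (1.447 to 1.554) labelled tamoxifen.

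**Figure D4:**
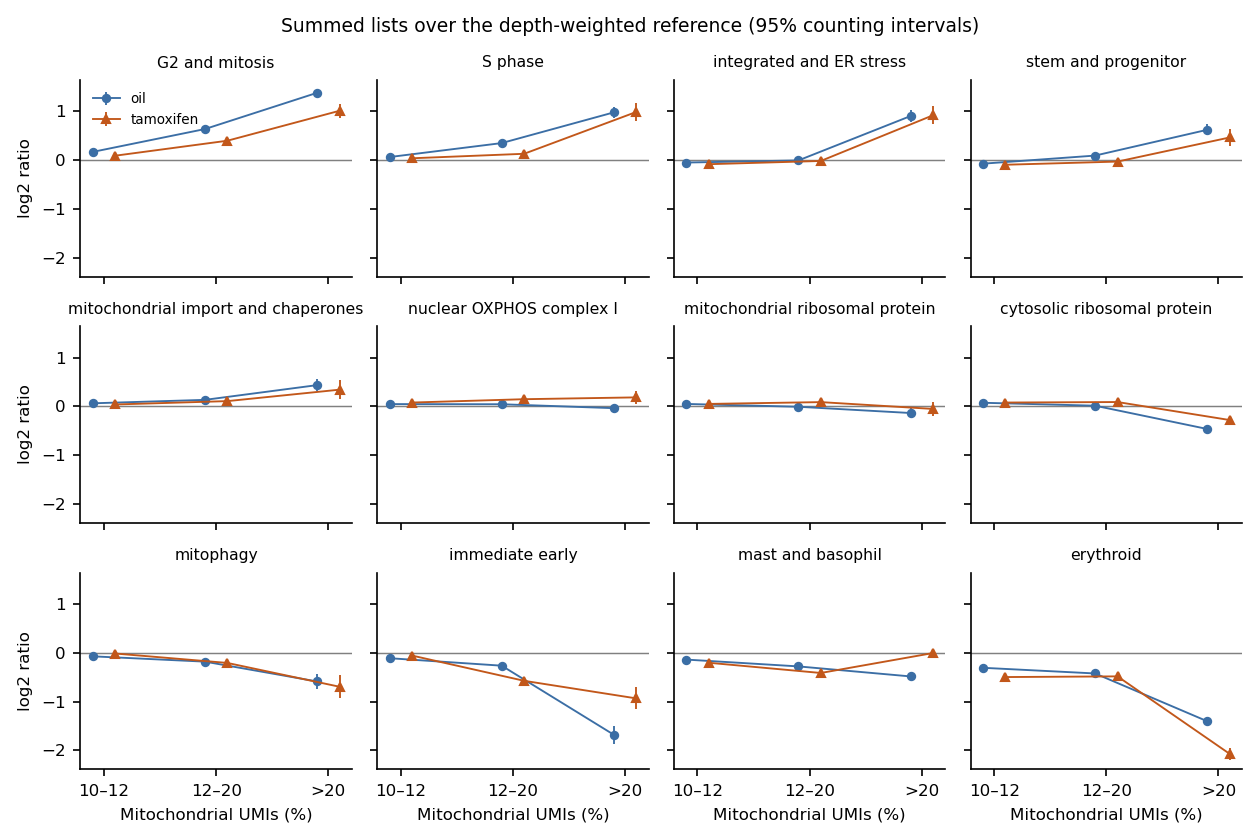
Log2 ratio of the summed UMIs of 12 gene lists, as shares of nuclear UMIs, in barcodes of 10% to 12%, 12% to 20% and over 20% mitochondrial UMIs over comparison barcodes weighted to the same depth, with 95% counting intervals, for the libraries labelled oil (blue circles) and tamoxifen (orange triangles). Ratios at 10% to 12% lie between -0.50 and 0.17, and over 20% they spread from -2.07 (erythroid) to 1.38 (G2 and mitosis).

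Transcript length ran along with these differences. By the longest annotated transcript of each gene (GENCODE M21, found for all 730 genes), the weighted median above 20% was -0.39 for the 143 genes of up to 1000 bases and 0.33 for the 144 genes of over 4000 bases in the library labelled oil, and -0.33 and 0.23 in the library labelled tamoxifen. At 10% to 12% the same medians were 0.06 and -0.04, and 0.07 and -0.07. Leaving out ribosomal protein genes, most of which are short, gave -0.38 and 0.34, and -0.31 and 0.23, above 20%. The part of length in the differences between gene lists was not tested.

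Between the libraries, more genes were lower than higher in the high-mitochondrial barcodes labelled tamoxifen. Of the 6040 genes, 61 (1.01%) were at least 1.5-fold higher and 264 (4.37%) at least 1.5-fold lower in the library labelled tamoxifen, against 47 (0.778%) and 35 (0.579%) in the comparison barcodes, which hold many more UMIs. The part of this difference in total UMIs in the counts was not tested. With the high-mitochondrial barcodes of both libraries weighted to 1 distribution of nuclear UMIs, their counts were 64 and 298. The counts in the high-mitochondrial barcodes were 103 and 136 with TMM and 112 and 124 with median-of-ratios factors. The median over all genes was -0.14 in the high-mitochondrial barcodes, where ribosomal protein genes had a median of 0.30. On the higher side were Isg15, an interferon-induced ubiquitin-like protein that Usp18 removes from its targets (43.7 CPM labelled oil, 114 CPM labelled tamoxifen, log2 ratio 1.38, 1.11 to 1.65), Oas3, another interferon-induced gene (21.8 and 43.7 CPM), the metallothioneins Mt1 and Mt2 (1.01 and 1.05), Rhag (1.26), Ppy (1.08), Ddit4 (0.95), Per1 (0.93), Rps27rt (1.07) and Rpl36a-ps1 (0.92). The last 2 share sequence with ribosomal protein genes, and their counts are uncertain. Ifit1, below the 20 CPM minimum, had 7 UMIs labelled oil and 59 labelled tamoxifen (log2 ratio 2.99, 1.86 to 4.37).

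For Isg15, Oas3 and Ifit1 the interval of the difference from the comparison barcodes included 0 (for Isg15 0.13, -0.14 to 0.40). For Usp18 it did not. Its ratio was 0.66 (0.05 to 1.29) in the high-mitochondrial and 1.45 (1.28 to 1.63) in the comparison barcodes, a difference of -0.79 (-1.40 to -0.18), and in barcodes of over 12% it was -0.09. The 22 interferon-stimulated genes considered had medians of 0.25 and 0.34, and 18 were higher in each group.

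The 10 genes lowest in the library labelled tamoxifen were Fxyd5, Slc16a3 (a lactate exporter), Hist1h2ac, Rprm, Fosb, S100a6, Tppp3, Mcpt1 (a mast cell protease), Klf2 and Tuba1a. Fxyd5 went from 59.6 to 17.7 CPM (-1.75, -2.17 to -1.35) against -0.81 in the comparison barcodes, and S100a6, a calcium-binding protein, from 262 to 105 CPM (-1.32, -1.50 to -1.15) against -0.49. Klf2, a transcription factor, went from 184 to 78.5 CPM (-1.23, -1.43 to -1.03) against -0.43 (-0.50 to -0.37), a difference of -0.79 (-1.003 to -0.59). Fosb went the other way, with -1.37 against -1.70. All 14 immediate early genes were lower in both groups, with medians of -0.82 in the high-mitochondrial and -0.47 in the comparison barcodes. All 46 genes of G2 and mitosis were also lower in both (-0.50 and -0.36), as were 43 of 44 S phase genes (-0.40 and -0.39), beside 71.7% and 66.4% of all genes. The high-mitochondrial barcodes of both libraries differed in depth as well, with medians of 4468 and 4928 nuclear UMIs. With the high-mitochondrial barcodes of both libraries weighted to 1 distribution of nuclear UMIs, Klf2 was at -1.08, Fxyd5 at -1.54 and the immediate early median at -0.74. In barcodes of over 15%, 148 labelled oil and 126 labelled tamoxifen, the immediate early median was 0.54, Fosb was at 0.57, Hist1h2ac at 1.55, Mcpt1 at 0.013 and Tuba1a at 0.0031, so these directions did not hold there.

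**Figure D5:**
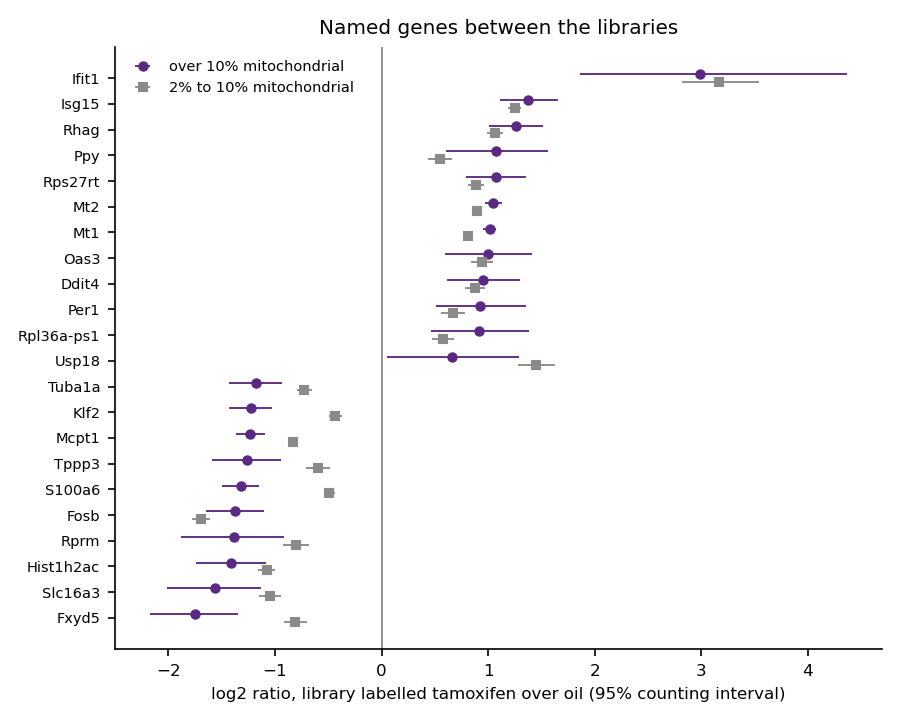
Log2 ratio between the libraries (labelled tamoxifen over labelled oil), with 95% counting intervals, in the high-mitochondrial barcodes (purple circles) and the comparison barcodes (grey squares), for the 10 highest and 10 lowest genes in the former and for Usp18, Isg15 and Ifit1. The intervals of both groups overlap for Isg15, Oas3 and Ifit1, while Klf2, S100a6 and Fxyd5 lie at -1.23, -1.32 and -1.75 in the high-mitochondrial and at -0.43, -0.49 and -0.81 in the comparison barcodes.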

How the data were processed

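The authors made 10x Chromium 3′ V3 libraries and deposited UMI counts per gene and barcode from Cell Ranger 3.0.2 (mm10), filtered to cells by that tool. The counts were used as deposited. Of the 31053 genes, 13 were mitochondrial, and 71 rows with a repeated symbol were kept apart by identifier. No further filter on doublets was applied. Counts were summed per library over barcodes, scaled to the nuclear total, and compared as log2 ratios with exact conditional binomial intervals (scipy 1.17.1), or normal ones on the log scale where weighted. The code was tested on simulated data. The members and gene lists were chosen with earlier results of these data known. Named genes were the 13 mitochondrial genes, the 10 highest and lowest with counting intervals clear of 0, Usp18, Isg15 and Ifit1, and up to 3 at either end of each list. Genes above 20% and after weighting were named likewise, after the values were seen. Alternatives used edgeR 4.0.16 (TMM) and DESeq2 1.42.0 (median of ratios) for scaling, other thresholds, depth weights and count minimums. Gene positions and transcript lengths are from GENCODE M21 (GRCm38).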

Additional observations from a re-analysis of the deposited data

Results flagged for a closer look

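A further 114 barcodes labelled oil and 94 labelled tamoxifen had over 10% mitochondrial UMIs but fewer than 500 genes, and entered no comparison. Their median mitochondrial share was 90.5% and 90.9%, with 23589 and 17651 nuclear UMIs in all. Of 8 genes looked at in them, 2 globins were higher in the library labelled tamoxifen, beyond counting error. For Hbb-bs, 33 and 188 UMIs gave a log2 ratio of 2.93 (2.39 to 3.51), and for Hba-a1, 32 and 58 UMIs gave 1.28 (0.63 to 1.95). Cma1 was lower, with 35 and 5 UMIs (-2.39, -4.10 to -1.03). Isg15 had 3 and 1 UMIs and Ifit1 had 0 and 0. These barcodes had a mean of 207 and 188 nuclear UMIs each, and the part of free RNA in them was not tested.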

How the results depend on the processing

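No paired analysis was possible because only 1 library stood for each treatment. Counts of genes past 1.5-fold are given as higher and lower, first for the high-mitochondrial over the comparison barcodes in the libraries labelled oil and tamoxifen, then between the libraries. They were 331 and 223, 78 and 244, and 61 and 264 in the report. They became 1148 and 371, 607 and 379, and 159 and 704 for barcodes over 12%, 1903 and 660, 1673 and 694, and 494 and 1118 over 15%, 100 and 540, 33 and 406, and 103 and 136 with TMM, 126 and 459, 51 and 314, and 112 and 124 with median-of-ratios scaling, 158 and 135, 32 and 130, and 39 and 111 at a minimum of 50 CPM and 2011 and 673, 1286 and 772, and 847 and 1445 with no minimum. The first 2 pairs were 191 and 135, and 46 and 117 with equal weight per barcode, 74 and 17, and 38 and 29 with depth weights, and 190 and 130, and 34 and 109 without the 5% of barcodes with the most UMIs, which may hold doublets. Between the libraries they were 98 and 444 at 10 CPM and 100 and 137 with ribosomal protein genes left out of the total. The higher count labelled tamoxifen was 140 at 10 CPM and 161 against barcodes of 4% to 8%. Above 20%, 300 and 302 genes were lower without depth weights, an alternative chosen after seeing the data. TMM moved the median of all genes from 0.07 to -0.10, from 0.02 to -0.09 and, between libraries, from -0.14 to -0.03, and 9 (TMM) and 8 (median of ratios) of 75 list medians, but 0 of 61 named gene values changed sign. The cause of these moves was not tested.

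Depth weights turned the sign of list medians, given as labelled oil and tamoxifen, for S phase (0.23 and 0.13), G2 and mitosis (0.60 and 0.29), complexes I (0.0499 and 0.0928), II and III (0.0831 and 0.0473), IV (0.0237 and 0.0784) and V (0.0655 and 0.12), import (0.0557 and 0.073), mitochondrial ribosome (0.0109 and 0.0627), heat shock (5.4e-05 and 0.0174), mitophagy (-0.0871 and -0.0651), immediate early (-0.19 and -0.14), mast (-0.20 and -0.59), nuclear-retained RNA (-0.17 and -0.23) and, labelled oil, cytosolic ribosomal proteins (0.0425). The medians that also turned were those of the interferon-stimulated (-0.068 and -0.16), BCL2 family (-0.13 and -0.14), p53 (-0.0482 and -0.10), mitochondrial DNA (0.0637 and 0.0353) and TCA cycle (0.0593 and 0.0434) lists, of the inflammasome (-0.10) and stress response (0.00692) lists labelled oil and of the antioxidant (0.0276) and cytosolic ribosomal protein (0.0696) lists labelled tamoxifen. They turned Hist2h2ac (0.36 and 0.37), Rrm2 (0.35 and 0.32), Tk1 (0.32 and 0.39), Neurl3 (-0.10 and -0.18) and Tcp11l2 (-0.27 and -0.14), labelled oil C2cd4a (0.35), Cdc45 (0.43), Rcc1 (0.11) and Trnp1 (-0.0875), and labelled tamoxifen Gm20186 (-0.0905), Tppp3 (-0.25) and Ung (0.17). Among the mitochondrial genes, depth weights turned the shares of mt-Nd1, mt-Nd2, mt-Nd3, mt-Nd4l, mt-Nd4 and mt-Co2 in both libraries, and of mt-Nd5 labelled oil. Over 12%, Tppp3 labelled tamoxifen (-0.21) and Usp18 between libraries (-0.0862) turned. Over 15%, labelled oil, S phase (0.19), G2 and mitosis (0.23), glycolysis (0.00659), immediate early (-0.60), C2cd4a (0.0114) and Tppp3 (-1.47) turned, labelled tamoxifen Anxa2 (-0.0034), Slc39a1 (-0.10) and Tcp11l2 (-0.0363), and between libraries the immediate early (0.54) and nuclear-retained (0.52) medians, Fosb (0.57), Hist1h2ac (1.55), Mcpt1 (0.0132) and Tuba1a (0.0031). The difference in the share of barcodes ran from -0.389 to 0.502 points over 8 alternatives, and was below 0 at thresholds of 12%, 15% and 20%, with an interval clear of 0 at 20% alone.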
